A study of Mus musculus with 24 samples.

Results

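Rev-erbα binding was described at 7 genes of the SREBP pathway and of cholesterol synthesis: Srebf1, Srebf2, Scap, Insig1, Insig2, Hmgcs1 and Sqle. They were taken as listed by name, and each site from 20 kb upstream to 20 kb downstream of the gene body was counted (mouse build mm9, GENCODE vM1 gene models). Of the 7 genes, 6 had a gene model among the 22350 protein-coding genes of chromosomes 1 to 19 and X. Hmgcs1, the enzyme that makes HMG-CoA, had none. Its RefSeq promoter (build GRCm38.p6, 300 bases) matched mm9 exactly at 2 places, both on unplaced contigs on which none of the lists had a site, so binding at Hmgcs1 could not be measured here.

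The samples came from wild-type C57BL/6 mice (genotype label C57BL/6J) at zeitgeber time 10, which is 10 h after lights on. The labels name no transgene or treatment for them, and the age of the mice is not given in the sources used here. Peaks of Rev-erbα ChIP-seq were given in 1 list for epididymal white adipose tissue, the fat beside the testis (called eWAT, from 2 libraries), and in 1 list for brain, where the ventral tegmental area was taken (1 library). For liver, a list of Rev-erbα ChIP-exo borders was given (2 libraries). The same Rev-erbα antibody was named for each of these libraries. ChIP-exo trims the precipitated DNA with exonucleases up to the crosslinked protein, so that a bound protein leaves a border on each strand.

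There were 9016 peaks in eWAT, 10687 in brain and 245360 borders in liver, and every peak spanned 150 bp. Each peak carried the authors' score and each border the authors' signal and p-value. Scores were compared only within a list, because the eWAT scores moved in steps of 1.013 and the brain scores in steps of 3.636. Depth is unknown, and the lists carry no values of single libraries, so there is no replicate spread behind any value below and no test was run. Counts over the genes are set beside the same count over all protein-coding genes. The lists hold no expression values, so the tissue labels were not checked against marker genes.

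As background, SREBP proteins are made as membrane-bound precursors of the endoplasmic reticulum, where Scap escorts them and the Insig proteins hold the complex back when sterols are plentiful. When sterols fall, the complex moves to the Golgi, proteases release the SREBP factor, and it switches on genes of cholesterol and fatty acid synthesis through sterol regulatory elements. Srebf1 encodes SREBP-1a and SREBP-1c, of which SREBP-1c drives fatty acid synthesis in liver, and Srebf2 encodes SREBP-2, the main regulator of cholesterol genes. Hmgcs1 acts early in the mevalonate pathway, and Sqle, squalene epoxidase, catalyses an oxygen-dependent later step. Rev-erbα is a heme-binding repressor of the circadian clock that binds the RORE, an A/T-rich stretch followed by the half-site AGGTCA, and pairs of half-sites such as RevDR2. The ONECUT factor HNF6 is a transcription factor of liver cells that binds the letters ATCAAT.

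No eWAT peak lay in any of the 6 windows, whereas 5 of 6 genes had a brain peak and 6 of 6 had liver borders. Over all genes the shares with such a site in the window were 28.7% for eWAT peaks, 41.5% for brain peaks and 87.7% for liver borders. A liver border pair, defined as a plus-strand border with the next minus-strand border 5 to 60 bp downstream, was present at 4 of 6 genes, against 51.2% of all genes. The 4 were Srebf1 (5 pairs), Srebf2 (3), Scap (7) and Insig2 (7), and Insig1 and Sqle had none. The map of the windows shows these sites by gene.

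**Figure D1:**
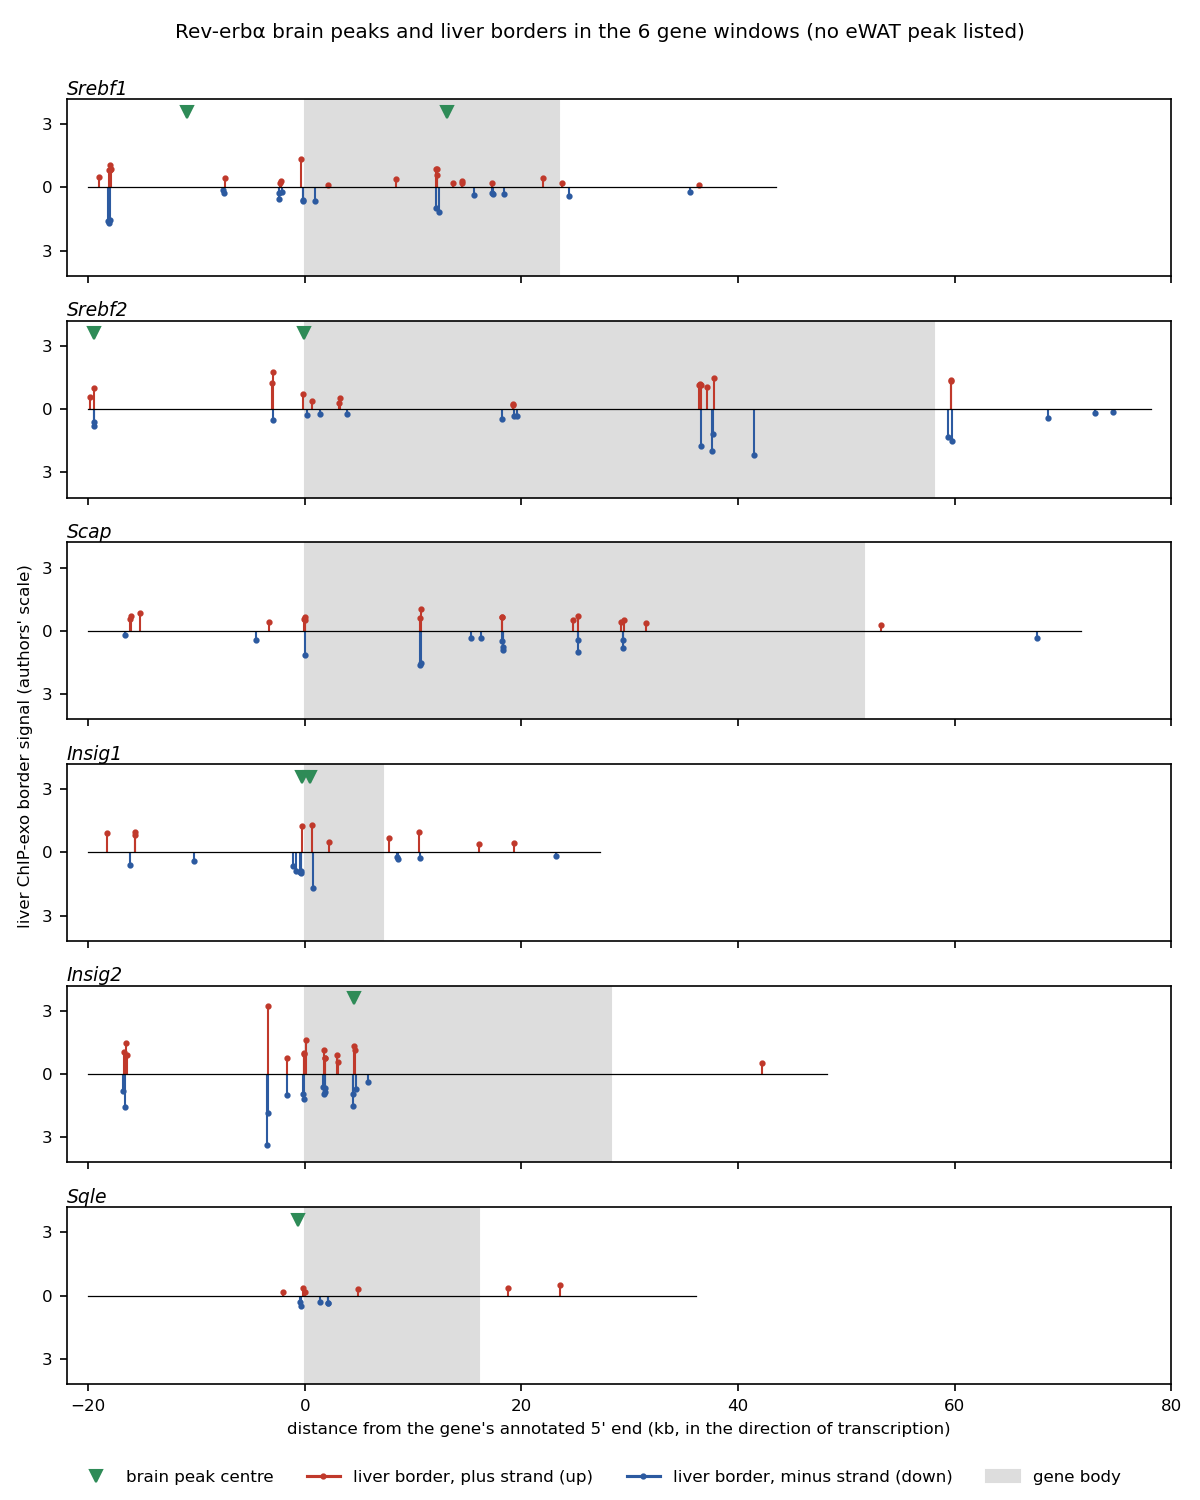
Positions of brain peaks and liver borders from 20 kb upstream to 20 kb downstream of each gene body, as distance from the annotated 5′ end in kb in the direction of transcription. Lollipops give the authors' border signal (plus-strand borders up, minus-strand borders down), green triangles the centres of the 8 brain peaks and grey the gene body. Insig2 holds the border of highest signal (3.39), and Sqle, with 11 borders of at most 0.48, holds the weakest set.

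The 8 brain peaks are printed because they are all the peaks found at these genes. Each is given 5′ to 3′ on the plus strand of mm9, with matches to the searched motifs in capitals. The motifs, searched on both strands, were the half-site AGGTCA, the RORE, RevDR2 (AGGTCANNAGGTCA), DR1 (AGGTCANAGGTCA), the ONECUT core ATCAAT, the E-box CACGTG, the core of the sterol regulatory element TCACNCCAC, the CCAAT box CCAAT and the GC box GGGCGG. The RORE was taken as 5 A or T bases ahead of a half-site, and also in a second form with A or T, A, A or T, any base and T ahead of it.
Srebf2 start, score 47.3, chr15:81977549-81977698: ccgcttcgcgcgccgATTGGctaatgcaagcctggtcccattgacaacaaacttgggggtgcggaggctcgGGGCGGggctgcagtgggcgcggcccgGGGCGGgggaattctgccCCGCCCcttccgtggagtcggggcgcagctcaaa
Insig1 start, score 47.3, chr5:28397637-28397786: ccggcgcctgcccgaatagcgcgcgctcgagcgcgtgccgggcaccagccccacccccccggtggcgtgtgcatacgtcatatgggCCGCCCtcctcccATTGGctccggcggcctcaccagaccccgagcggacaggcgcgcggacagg
Insig1 downstream of the start, score 29.1, chr5:28398311-28398460: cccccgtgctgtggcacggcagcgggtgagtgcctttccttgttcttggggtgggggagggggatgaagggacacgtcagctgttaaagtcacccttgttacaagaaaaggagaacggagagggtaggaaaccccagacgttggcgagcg
Insig2 internal start, score 25.5, chr1:123224589-123224738: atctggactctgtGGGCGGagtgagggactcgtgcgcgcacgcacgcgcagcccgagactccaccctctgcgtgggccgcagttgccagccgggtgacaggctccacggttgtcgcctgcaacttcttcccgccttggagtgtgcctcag
Sqle upstream, score 21.8, chr15:59145906-59146055: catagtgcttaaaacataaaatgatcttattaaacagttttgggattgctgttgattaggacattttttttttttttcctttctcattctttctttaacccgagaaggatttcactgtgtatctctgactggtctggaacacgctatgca
Srebf1 intron, score 25.5, chr11:60022862-60023011: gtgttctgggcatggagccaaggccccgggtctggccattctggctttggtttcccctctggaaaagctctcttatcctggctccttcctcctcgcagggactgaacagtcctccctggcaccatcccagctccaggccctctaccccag
Srebf1 window in Tom1l2, score 25.5, chr11:60046937-60047086: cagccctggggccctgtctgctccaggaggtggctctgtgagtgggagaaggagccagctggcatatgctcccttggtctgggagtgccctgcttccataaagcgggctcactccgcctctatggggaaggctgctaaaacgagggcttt
Srebf2 window beside Ccdc134, score 29.1, chr15:81958164-81958313: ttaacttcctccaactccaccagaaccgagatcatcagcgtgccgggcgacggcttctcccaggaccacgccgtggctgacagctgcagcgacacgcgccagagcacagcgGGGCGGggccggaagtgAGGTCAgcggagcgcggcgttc

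The liver border pairs below are the pairs of highest summed signal of Insig2, Srebf2 and Scap and the closest-spaced pair at the Scap start, each with 10 bp on either side. They are printed as above, and capitals again mark motif matches. The best pair of the Srebf1 window, in Tom1l2 with a summed signal of 2.63, held none of the searched motifs and is not printed.
Insig2 upstream pair, chr1:123232592-123232637: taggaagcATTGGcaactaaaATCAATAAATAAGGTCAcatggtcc
Srebf2 upstream pair, chr15:81974723-81974772: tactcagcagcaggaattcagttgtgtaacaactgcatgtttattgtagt
Scap intron pair, chr9:110246460-110246527: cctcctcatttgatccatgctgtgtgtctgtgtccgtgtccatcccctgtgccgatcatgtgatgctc
Scap start pair, chr9:110235799-110235825: gcatgcgcacgccgccgggagCACGTG

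Srebf1 lies on chromosome 11 (60012591 to 60036083, minus strand, ENSMUSG00000020538.8) and has 13 annotated starts. It had 2 brain peaks, both with the score 25.5, which is the median of the brain list. The first lay in an intron of Srebf1, 920 bp downstream of an internal start and 13147 bp downstream of the gene's 5′ end. The second lay 10928 bp upstream of the 5′ end in an intron of the neighbouring gene Tom1l2, whose start, 2162 bp away, was the nearest. Neither had a liver border within 200 bp or any of the searched motifs.

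In liver, Srebf1 had 40 borders, or 6.3 per 10 kb of window, more than 95.4% of all genes. Their signals ran from 0.11 to 1.69 with a median of 0.43, below the 0.471 of the whole list, and 18 of the 40 were above that value. The 3 of highest signal, at 1.69, 1.60 and 1.56, all belonged to a group of 7 borders in Tom1l2, 17941 to 18190 bp upstream of the Srebf1 5′ end. That group also held the 3 best pairs of the window, with summed signals of 2.63, 2.50 and 2.38, and their nearest start was that of Tom1l2. The pairs of 2.63 and 2.38 shared 1 minus-strand border, at 60054097. Of the 40 borders, 27 were nearest to a start of Srebf1.

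Around its own starts, Srebf1 had 3 liver borders 165 to 316 bp upstream of the 5′ end, the highest with a signal of 1.36. A group of 5 borders stood among internal starts, 12137 to 12380 bp downstream of the 5′ end, with signals from 0.58 to 1.18. This group held the pair at 60023894 and 60023939, 45 bp apart, whose midpoint was 22 bp upstream of the nearest start. The minus-strand border of the pair lay 28 bp downstream of another start, so the pair stood between starts. The summed signal of the pair, 1.53, was rank 11800 of all 27061 pairs. The remaining pair of the gene, in an intron, had a summed signal of 0.47 and was near the bottom of the list, above 0.79% of pairs.

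Srebf2 lies on chromosome 15 (81977696 to 82035806, plus strand, ENSMUSG00000022463.6). Its start carried one of the 2 highest-scoring brain peaks of the 6 genes, with a score of 47.3 and rank 1166 of 10687, shared by 285 peaks. The centre of the peak was 73 bp upstream of the start, and its sequence holds 1 CCAAT box and 3 GC boxes but no half-site. No liver border lay within 100 bp of that centre. The nearest, 146 bp away, had a signal of 0.73. The other brain peak of the window, with a score of 29.1, lay 19458 bp upstream of Srebf2 and 114 bp from the start of Ccdc134. It was the only one of the 8 peaks with a half-site, and it had 3 liver borders within 100 bp with signals of 1.01, 0.62 and 0.80.

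The 35 liver borders of Srebf2 came to 3.57 per 10 kb, more than at 81.5% of all genes, and their median signal was 0.73. In this gene 14 of 35 borders (40.0%) belonged to the top 10% of the list by signal, whose lower limit is 1.09. The 3 highest, with signals of 2.16, 1.99 and 1.76, were deep in the gene, 36619 to 41437 bp downstream of the start. None of the 3 belonged to a pair, and the highest was nearer to the start of Tnfrsf13c, 35633 bp away. Within 1 kb of the start stood 3 borders, with signals of 0.73, 0.30 and 0.39, of which the first was at the gene's median. The best pair, at 81974733 and 81974762 and 29 bp apart, lay 2949 bp upstream with a summed signal of 2.27, above 78.9% of pairs. The next pair, with 1.63, was the one in the brain peak beside Ccdc134, and the last, in an intron, had a summed signal of 0.54.

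Scap, the sterol-sensing escort of SREBP, lies on chromosome 9 (110235792 to 110287450, plus strand, ENSMUSG00000032485.8). It was the 1 measured gene with neither an eWAT nor a brain peak, as were 47.3% of all genes. The nearest brain peak lay 23350 bp beyond the gene body, 86 bp from the start of Ptpn23, and had a score of 76.4 (rank 290). The nearest eWAT peak was 657552 bp away, and 90.5% of genes had one nearer.

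Liver binding at Scap was nonetheless mapped at 32 borders, 3.49 per 10 kb and more than at 80.9% of genes, with a median signal of 0.565. The border signals of 1.65 and 1.53, the 2 highest, belonged to a group of 4 borders in an intron, 10629 to 10725 bp downstream of the 5′ end. This group made the best pair, 47 bp apart and 210 bp upstream of an internal start, with a summed signal of 2.57, and the second pair, with 2.25. At the 5′ end itself 4 borders spanned 58 bp, and 3 pairs shared 1 minus-strand border there, whose signal of 1.162 was the next highest of the gene, with summed signals of 1.81, 1.74 and 1.69. The searched stretches of these 3 pairs end in the same E-box, the letters bound by CLOCK and BMAL1 among other factors. It lies in the 10 bp added beyond the shared minus-strand border, and not between the borders of any of the 3 pairs. A half-site was found in 1 of the 7 Scap pairs, an intron pair with a summed signal of 1.45.

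Insig1 lies on chromosome 5 (28397952 to 28405201, plus strand, ENSMUSG00000045294.9), has 1 annotated start and is the shortest of the 6 genes. Both of its brain peaks were at that start. One, with a score of 47.3, had its centre 241 bp upstream, and the other, with a score of 29.1, 433 bp downstream in an intron. The upstream peak holds a CCAAT box and a GC box, and 2 liver borders lay within 100 bp of its centre, with signals of 0.87 on the minus strand and 1.23 on the plus strand. The downstream peak had no border within 200 bp. The border of highest signal in the window, 1.67, lay 289 bp beyond its centre, and the plus-strand border of 1.28 lay 201 bp beyond it.

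In all, Insig1 had 22 liver borders, 4.66 per 10 kb, more than at 89.3% of genes, and 15 of them were above the list median in signal. The gene had no pair within 60 bp. At the upstream brain peak 3 minus-strand borders stood on the upstream side of the plus-strand border, the reverse of the order within a pair. All 22 borders were nearest to the Insig1 start.

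Insig2 lies on chromosome 1 (123200930 to 123229166, minus strand, ENSMUSG00000003721.8) and had the liver borders of highest signal among the 6 genes. Of its 31 borders, 30 were above the list median, their median signal was 0.96, and 11 of 31 (35.5%) belonged to the top 10%. The borders came in few groups: when those within 200 bp of the next were joined, they formed 9 groups, 2 of which were single borders. At Srebf1, by contrast, 40 borders formed 19 groups with 12 single ones.

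The best site of Insig2 was 3448 bp upstream of its nearest annotated start, outside any gene. Its plus-strand border at 123232602 had a signal of 3.24 and its minus-strand border at 123232627 one of 3.39. The next highest border of the window, a minus-strand border with a signal of 1.84, stood beside them at 123232550. The pair, 25 bp apart, had a summed signal of 6.63, rank 552 of 27061 and above 98% of pairs. Its sequence holds a RORE at bases 28 to 38 and, directly ahead of it, the ONECUT core at bases 22 to 27. It was the only one of the 22 pairs at these genes with a RORE, against 0.163% of all pairs. Half-sites were present in 7.87% of all pairs, the ONECUT core in 13.0%, and both in 0.728%. The authors' p-values of its borders were 0.014 and 0.011.

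A second group of 5 Insig2 borders, from 127 bp upstream to 59 bp downstream of the 5′ end, had a highest signal of 1.62 and held pairs of 2.20 and 1.89. Another group, of 7 borders, lay in an intron 1715 to 1867 bp downstream and held 3 pairs with summed signals between 1.41 and 2.07. A further group of 5 borders stood 16397 to 16792 bp upstream, the highest with a signal of 1.58. The single brain peak of the gene, with a score of 25.5, lay 62 bp upstream of an internal start, 4503 bp downstream of the 5′ end, and coincided with a group of 5 liver borders. Of these, 3 lay within 100 bp of the peak centre, with signals of 1.34, 1.52 and 0.97, the highest summed liver signal (3.83) at any of the 8 brain peaks.

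Sqle lies on chromosome 15 (59146632 to 59162747, plus strand, ENSMUSG00000022351.8). It had 1 brain peak, 652 bp upstream of the start, and its score of 21.8 was the lowest of the 8 and above 6.73% of the brain list. The sequence is A/T-rich (34.0% G and C, against 59.3 to 75.3% in the other 7 peaks and a median of 55.3% in the whole brain list) and holds none of the searched motifs. Liver binding was also weakest here. The 11 borders came to 1.96 per 10 kb, more than at 61.4% of genes, with signals from 0.16 to 0.48 and a median of 0.35. The border of highest signal (0.4843) lay in an intron of E430025E21Rik, the next (0.4836) 378 bp upstream of the Sqle start, and the one after (0.3764) again in E430025E21Rik. None belonged to the top 10%, 2 were above the list median, and no pair was formed.

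**Figure D2:**
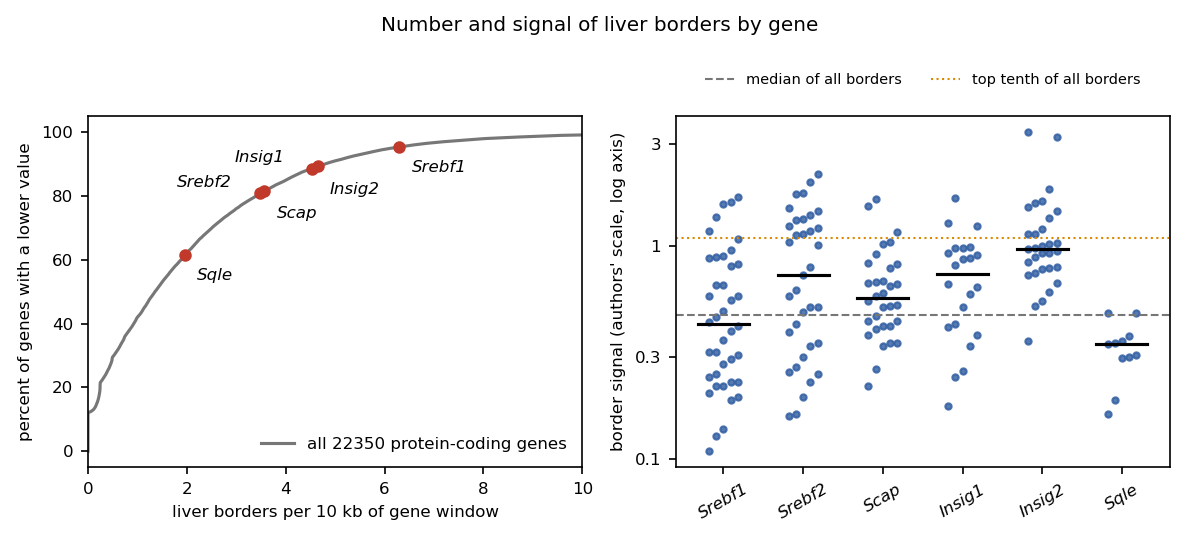
Left, liver borders per 10 kb of gene window (x axis) against the percent of all 22350 genes with a lower value (y axis), with the 6 genes in red, from Sqle at 1.96 to Srebf1 at 6.3. Right, the authors' signal of each border on a log axis by gene, with the gene's median as a bar and the median and the lower limit of the top 10% of all borders as lines. Insig2 has 30 of 31 borders above the median of all borders, and Sqle has 2 of 11.

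Across the 6 windows, 171 liver borders (87 plus-strand, 84 minus-strand) were counted in 424.8 kb. The median gene had 4.05 borders per 10 kb, against 1.35 over all genes. The windows were 47.2 to 98.1 kb long, against a median of 55.4 kb. The order of density was Srebf1, Insig1, Insig2, Srebf2, Scap and Sqle, and the order of median signal was Insig2, Insig1, Srebf2, Scap, Srebf1 and Sqle. The gene with most borders was thus the second lowest in median signal. Neighbours in these orders were close (4.66 and 4.54 per 10 kb for Insig1 and Insig2, 3.57 and 3.49 for Srebf2 and Scap), and without replicate values such differences could not be judged. In the top 10% by signal stood 36 of 171 borders, or 21.1%. At the authors' p-value of 0.01 or less stood 27 of 171, or 15.8%, against 32.6% of the whole list. The share was thus above that of the list by signal and below it by p-value.

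Borders within 1 kb of an annotated start were found at 6 of 6 genes, against 54.9% of all genes, and pairs at 3 of 6 (Srebf1, Scap and Insig2), against 20.0%. Genes differ in the number of annotated starts, from 1 at Srebf2 and Insig1 to 13 at Srebf1 and Insig2, and more starts give more room for such a count. By nearest start, 141 of 171 borders belonged to the 6 genes and the others to neighbours. These were Tom1l2 (11 borders) and Rai1 (2) beside Srebf1, Tnfrsf13c (8) and Ccdc134 (4) beside Srebf2, and 2610002I17Rik (4) and Ptpn23 (1) beside Scap.

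The brain peaks stood close to starts. Of the 8, 7 were within 1 kb of an annotated start, 6 of them at a start of the gene itself, against 37.9% of all brain peaks within 1 kb. By gene, 5 of 6 had a brain peak within 1 kb of a start, against 18.3% of all genes, and 3 of 6 (Srebf1, Srebf2 and Insig1) had at least 2 brain peaks in the window, against 17.4%. Their scores had a median of 27.3 against 25.5 in the list, with 4 of 8 above the list median and 3 at it (48.4% of all brain peaks are above it). In steps of the score they ranged from 6 to 13, where the brain list begins at 4, so the lowest of them were near the list's floor. Liver borders lay within 100 bp of the centre at 3 of 8 peaks (Insig1 upstream, Insig2 and the one beside Ccdc134), against 36.4% of all brain peaks. The share at these genes was close to that background.

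**Figure D3:**
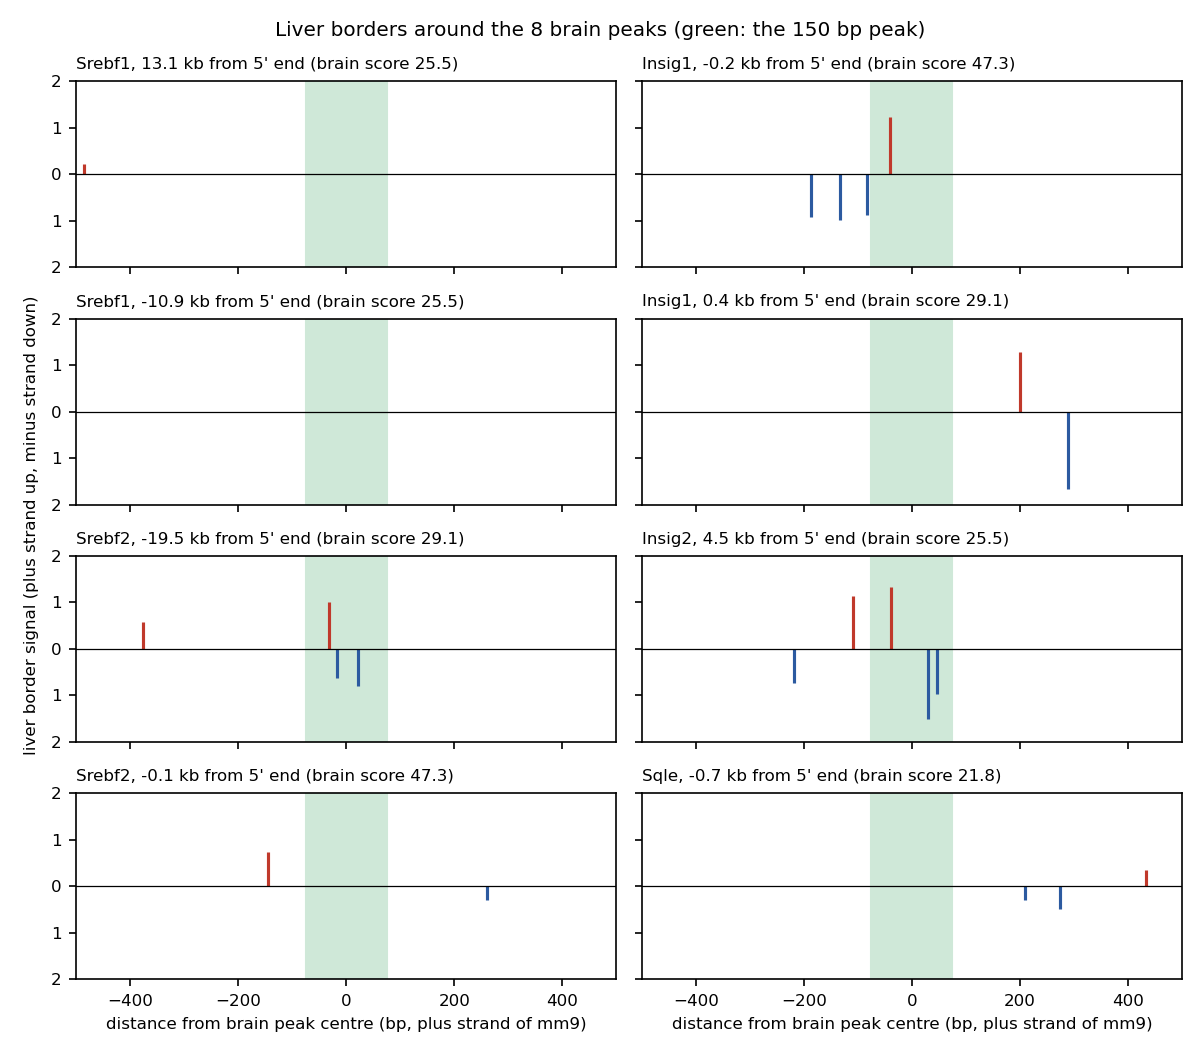
Liver border signal (authors' scale, plus strand up in red, minus strand down in blue) against distance in bp from the centre of each of the 8 brain peaks, whose 150 bp are shaded. Borders fall inside the shading, or just beside it, at the Ccdc134-side peak of Srebf2, at the upstream peak of Insig1 and at Insig2, and not at the other 5 peaks.

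The motif search found few matches in the brain peaks beyond promoter boxes. A half-site was found in 1 of 8 (11.7% of all brain peaks), and a RORE of either form, RevDR2, DR1, the ONECUT core, the E-box and the sterol regulatory element core in 0 of 8. GC boxes were found in 4 of 8 (20.8% of all brain peaks) and CCAAT boxes in 2 of 8 (18.9%). For such boxes the whole list is an unlike background: 7 of the 8 peaks lay within 1 kb of a start, against 37.9% of all brain peaks. Their median share of G and C was 64.3%, against 55.3%. A comparison with other brain peaks at starts was not made. Among the 22 liver pairs, searched with 10 bp on each side, 2 held a half-site, 4 an E-box, 2 a CCAAT box and 0 a GC box. Of the 4 with an E-box, 3 overlap one another at the Scap start and have it beyond their shared minus-strand border. Over all liver pairs the shares were 7.87% for half-sites, 7.09% for E-boxes, 8.09% for CCAAT boxes and 3.51% for GC boxes. RefSeq promoters were matched for 6 of the 7 genes, not Sqle. In these 11 promoters (250 bases upstream to 50 downstream of a start, GRCm38.p6), the core of the sterol regulatory element was found in 1, that of Hmgcs1, against 1.24% of all 32851 promoters. GC boxes were found in 9 of 11 (35.7% of all), CCAAT boxes in 6 of 11 (37.4%), E-boxes in 3 of 11 (7.15%) and half-sites in 2 of 11 (16.3%). The 2 Scap promoters overlap and share 1 E-box. In the Insig1 promoter a half-site and an E-box overlap. A match gives the letters only and not a bound site.

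In eWAT, 0 of 6 genes had a peak within 1 kb of a start, against 3.58% of all genes, and accordingly no brain peak at these genes overlapped an eWAT peak (6.61% of all brain peaks did). A brain peak without an eWAT peak was found at 5 of 6 genes, against 24.0% of all genes, and the reverse at 0 of 6, against 11.2%. The nearest eWAT peaks stood 23667 bp from the body of Insig2 (score 19.2), 31288 bp from Insig1 (30.4), 36081 bp from Sqle (70.9), 61138 bp from Srebf2 (10.1) and 79397 bp from Srebf1 (14.2). Over all genes the median distance was 67818 bp to an eWAT peak and 37290 bp to a brain peak. At 4 of 6 genes the nearest eWAT peak thus lay outside the 20 kb window but nearer than at the median gene, as the plot of distances shows.

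**Figure D4:**
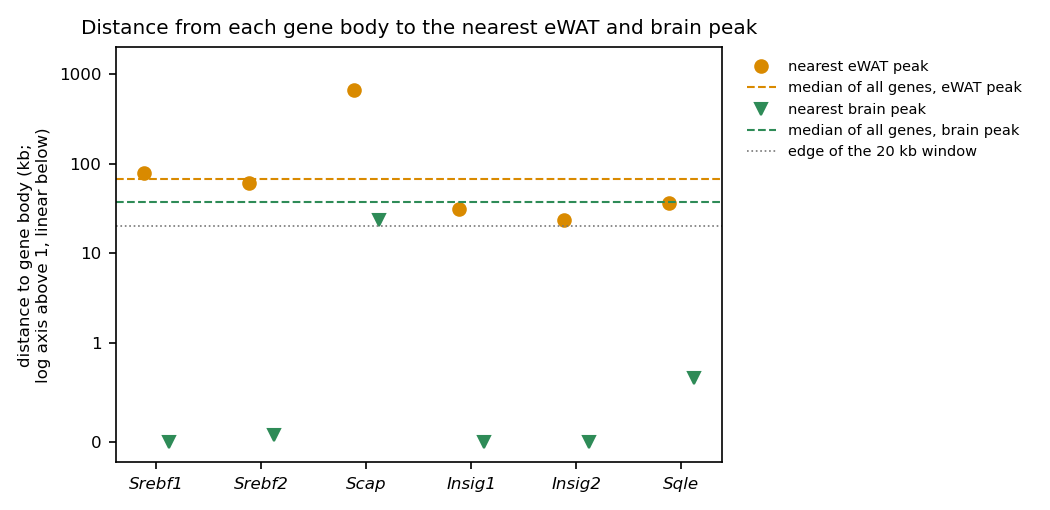
Distance in kb from each gene body to the nearest eWAT peak (orange circles) and the nearest brain peak (green triangles), on an axis that is logarithmic above 1 kb and linear below, with the medians of all genes dashed and the edge of the 20 kb window dotted. All 6 eWAT distances lie above the edge, from 23667 bp at Insig2 to 657552 bp at Scap, and 5 of 6 brain distances lie below 1 kb.

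The eWAT peak nearest to Sqle stood apart from the others. It lay 36081 bp upstream, in intergenic sequence whose nearest start was that of Sqle, and its score of 70.9 was rank 115 of the 9016 eWAT peaks. It overlapped a brain peak (score 25.5), and 5 liver borders lay within 100 bp of its centre, with a summed signal of 5.52 and a highest signal of 1.97. Liver borders lay that near to 2703 of the 9016 eWAT peaks. The sequence, printed because of the 6 nearest eWAT peaks it was the 1 that coincided with sites of both other lists, holds the second form of the RORE on the minus strand (capitals), as do 1.92% of eWAT peaks.
Sqle upstream eWAT peak, chr15:59110477-59110626: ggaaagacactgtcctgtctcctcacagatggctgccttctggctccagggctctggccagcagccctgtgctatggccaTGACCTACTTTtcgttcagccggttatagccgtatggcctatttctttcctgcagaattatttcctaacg

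The nearest eWAT peak of Insig1, at rank 967, also had 3 liver borders within 100 bp, with a summed signal of 3.39, but no searched motif and no brain peak. The nearest eWAT peaks of the other 4 genes had no liver border within 100 bp.

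Other genes of the pathway, 28 in all, were counted in the same windows. An eWAT peak was found at 12 of 28 (42.9%, against 28.7% of all genes), a brain peak at 19 (67.9%, against 41.5%), a liver border pair at 21 (against 51.2%) and a liver border at 28 (against 87.7%). Both tissues had a peak at 9 genes, for which the share of all genes is not given here. Brain alone had a peak at 10 (35.7%, against 24.0% of all genes). For eWAT alone the count was 3 (10.7%, near the 11.2% of all genes), and for neither tissue 6 (21.4%, against 47.3%). Brain peaks within 1 kb of a start were found at 11 of 28 (39.3%, against 18.3% of all genes). An eWAT peak there was found at 1 of 28 (3.57%, near the 3.58% of all genes). That gene was Scarb1, the receptor that takes up cholesterol from high-density lipoprotein.

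The proteases that release SREBP, Mbtps1 and Mbtps2, both had a brain peak at the start, and Mbtps1 also had an eWAT peak, of the lowest score in that list (10.1) and nearest to Slc38a8. Among the 8 genes from acetyl-CoA to squalene, eWAT peaks were found at 2 (28.7% of all genes) and brain peaks at 6 (41.5%). Acat2, Idi1 and Mvk each had a brain peak with a score of 40.0, at the start in Acat2 and Idi1 and 9039 bp from a start in Mvk. Fdft1, squalene synthase, had 5 eWAT peaks in its window, the highest with a score of 29.4 in an intron. The lowest, with scores of 11.1 and 10.1, were nearest to the starts of Neil2 and Ctsb. Fdft1 also had a brain peak in an intron, with a score of 21.8. Mvd had a brain peak 207 bp upstream of its start and an eWAT peak in its neighbour Cyba.

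Among the 10 genes from squalene to cholesterol, eWAT peaks were found at 4 and brain peaks at 5, near the all-gene shares of 28.7% and 41.5%. Sc4mol and Hsd17b7 had both, each with scores below the list median (13.2 in eWAT and 21.8 in brain for Sc4mol, 11.1 in eWAT and 21.8 in brain for Hsd17b7). The Sc4mol peaks lay in intron sequence of Klhl2, with the start of Sc4mol nearest. Those of Hsd17b7 were nearest to the start of 1700084C01Rik. Tm7sf2 had a brain peak of 40.0 that lay in an exon of Syvn1. Sc5d and Ebp had an eWAT peak alone, with scores of 17.2 and 13.2, the Sc5d one 7372 bp upstream of its start and the Ebp one nearest to Porcn. Among the 8 genes of uptake, efflux and storage, eWAT peaks were found at 5 and brain peaks at 6, where the all-gene shares were 28.7% and 41.5%. Abca1, which exports cholesterol, had 3 peaks in each tissue. Its best eWAT peak scored 43.6 (rank 421) in an intron, and its best brain peak scored 54.5 (rank 771), 74 bp upstream of a start. Abcg1 and Nr1h3, which encodes the sterol-sensing receptor LXRα, also had peaks in both tissues, with best eWAT scores of 12.2 and 19.2 and best brain scores of 21.8 and 25.5.

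**Figure D5:**
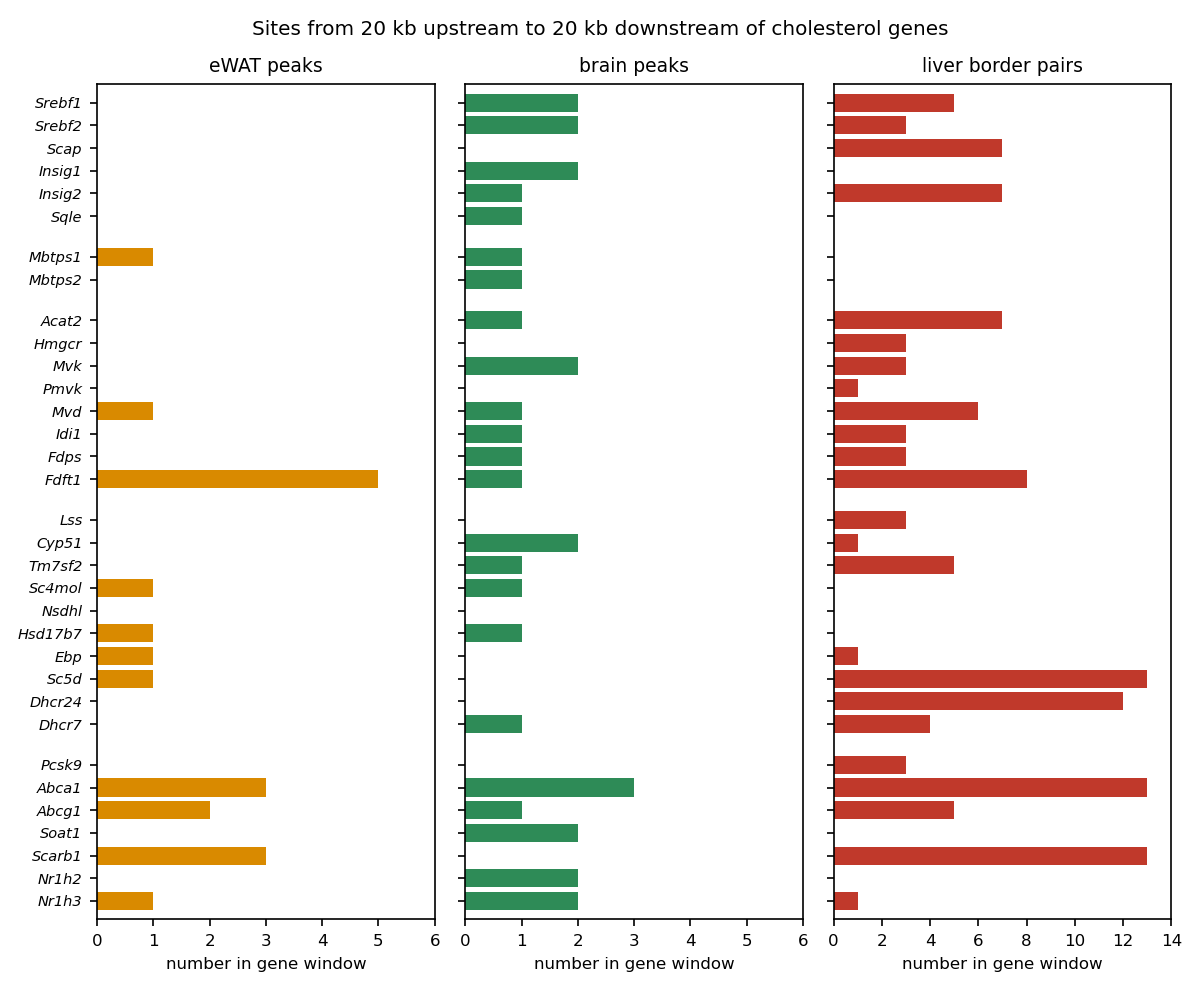
Number of eWAT peaks, brain peaks and liver border pairs (x axes) from 20 kb upstream to 20 kb downstream of each gene (rows), with the 6 genes described above at the top and 27 other pathway genes below in 4 groups (SREBP processing, mevalonate pathway to squalene, squalene to cholesterol, and uptake, efflux and storage). The eWAT column is empty for the 6 genes and filled for 11 of the 27 plotted below them.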

How the data were processed

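Formaldehyde-fixed tissue was sonicated and immunoprecipitated, and for ChIP-exo lambda and RecJf exonucleases were applied to bead-bound DNA, per the labels' protocols. The submitters' processing notes name mm9, Bowtie 0.12.8 (ChIP-seq), Bowtie 1.1.1 (ChIP-exo) and HOMER. Whether replicates were pooled, whether inputs were used and which caller settings applied is not given in the sources used here. The deposited peak lists give the authors' score per peak, whose scale is not stated. Per the file headers, the deposited border list gives the authors' signal, on a scale not stated, and the authors' p-value, which ran from 0.005 to 0.05. Another threshold or depth would lengthen or shorten these lists.

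Peaks were placed by their central base and borders by their position in the mm9 sequence (NCBIM37) and GENCODE vM1 annotation (22350 protein-coding genes, 70018 starts), using Python 3.11.15, pandas 2.3.3 and pysam 0.24.0. The counting was tested on simulated sites. A rank is the lowest shared by tied values. All 7 genes were named, with each peak and the 3 best borders and pairs. Of other pathway genes, those with peaks in both tissues were named, and otherwise up to 4 per list by rank. The values of 1 gene that this rule selects are not reported here, and the counts over the 28 genes include it. Mbtps2 and the nearest eWAT peaks outside the windows were named after their values were seen. The genes and lists were chosen with earlier results of these data known. With 1 list per group, nothing was tested; windows, thresholds and overlaps were varied instead. The other 13 groups (19 samples) of the series were not analysed here.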

Additional observations from a re-analysis of the deposited data

How the results depend on the processing

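Of the alternatives to the counts in the 6 windows, 24 left the count within 1.5 times its value and 5 moved it further. Of the 24, at least 9 could only give 0, since no eWAT peak lies in the windows, so at most 15 were free to differ. Within the windows, the count by nearest gene also gave 0 for eWAT. Outside the windows, however, the eWAT peaks nearest to Insig1, Insig2 and Sqle each had a start of that gene as the nearest start. With 50 kb on both sides, 3 of 6 genes had an eWAT peak (3 peaks at Insig1, 1 at Insig2 and 1 at Sqle) in place of 0. Over all genes, 37.3% had an eWAT peak nearer than the 36081 bp of Sqle and 47.7% nearer than the 61138 bp of Srebf2. The share of all genes at 50 kb lies between these. With brain peaks above the list median score, 2 genes (Srebf2 and Insig1) had one in place of 5, because 3 of the 8 peaks are at the median itself and 1 is below. With borders at the authors' p-value of 0.01 or less, 27 borders were left in place of 171, 0 genes had a border pair in place of 4, and 1 brain peak had a liver border in place of 3. That peak was the one beside Ccdc134, and the brain peaks at the starts of Insig1 and Insig2 kept none. The limit of 0.01 left 1517 pairs in the whole list, in place of 27061. The shares of all genes with such a peak or pair under these other settings are not given here. No paired analysis was possible because each group has 1 list with no value per replicate, and for the same reason no library could be left out. Depth is unknown, so a site absent from a list was not called by the authors and is not shown to be unbound.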
